A study of Homo sapiens with 4 samples.

Results

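The cytosolic ribosomal protein genes encode the protein part of the ribosome. They were taken as the table rows whose symbol is RPL or RPS, a number and at most a suffix of A, X or L, together with RPLP0, RPLP1, RPLP2 and RPSA, which gave 84 of 16376 rows. Of these, 77 are core ribosomal proteins, 46 of the large and 31 of the small subunit, and 7 are paralogs whose symbols end in L or L1. RNA came from LASCPC-01, a human line of neuroendocrine prostate cancer derived from prostate epithelial cells that were given N-Myc and an active form of AKT1. Cells treated with ketotifen, an antihistamine and mast cell stabiliser, were compared with cells given phosphate-buffered saline (PBS), both at day 3, with 2 libraries in each group. The genotype of every sample is labelled wild type, and the labels give no ketotifen dose. The series title names ketotifen as a candidate treatment of this cancer, and the comparison here asks how the RNA of these genes differed after it.

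Values are FPKM, fragments per kilobase of gene and per fixed number of sequenced fragments, 1 deposited value per gene and library. The 4 columns are lettered A and B within each group. The reads recovered from the values came to 34812856 and 32027415 in the ketotifen libraries and to 31154678 and 32928088 in the PBS libraries. The neuroendocrine regulator INSM1 had 19.7 and 21.8 FPKM with ketotifen and 22.9 and 21.7 FPKM with PBS, and ENO2, NCAM1, UCHL1 and the epithelial genes EPCAM, CDH1, KRT8 and KRT18 also passed the filter for testing, an average of 1 FPKM or more. Limma called 0 of the 5 tested neuroendocrine and 0 of the 4 epithelial markers. At an unadjusted p under 0.05, 1 neuroendocrine marker was higher and 2 lower, and 0 epithelial markers were higher and 1 lower. Of all tested genes, 10% were higher and 10.3% lower at that p. Of the neuroendocrine markers, CHGA and SYP were below the filter, with CHGA at 0.0113 and 0.0739 FPKM with ketotifen and 0.0886 and 0 FPKM with PBS. Of 5 markers of other cells, COL1A2, PTPRC and PECAM1 were below 0.1 FPKM in every library, while COL1A1 and CD68 lay between 1.95 and 3.97 FPKM. Voom, limma's method for counts run on the recovered reads, called 3 of all these markers lower with ketotifen, ENO2, NCAM1 and CDH1, the gene of E-cadherin. It called 0 of the markers higher, and of all tested genes it called 3.56% lower and 3.35% higher. ENO2 had 2.07 and 1.60 FPKM with ketotifen and 2.76 and 3.10 FPKM with PBS, NCAM1 44.4 and 43.9 FPKM with ketotifen and 52.0 and 51.2 FPKM with PBS and CDH1 77.4 and 77.0 FPKM with ketotifen and 85.7 and 91.3 FPKM with PBS. Their changes, as ketotifen minus PBS on the log2(FPKM + 1) scale, were -0.47, -0.22 and -0.19 (limma adjusted p = 0.102, 0.107 and 0.136). On the recovered reads voom gave log2 changes of -0.68, -0.22 and -0.20 (voom adjusted p = 0.0427, 0.00906 and 0.0210). In all 3 both ketotifen libraries were below both PBS libraries. UCHL1, EPCAM, KRT8 and KRT18 went the other way, with changes of 0.13, 0.07, 0.12 and 0.10. In each of them both ketotifen libraries were above both PBS libraries. The part of these marker differences in the members' changes was not tested.

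Core proteins are joined to ribosomal RNA in the ribosome, in a large subunit, which makes the peptide bond, and a small subunit, which reads the mRNA. The mRNAs of these proteins are among the most abundant of growing cells. Many begin with a run of pyrimidines, the terminal oligopyrimidine tract, through which mTOR and the binding protein LARP1 control their translation and stability. Proteins left without a ribosome are degraded, and a few of them bind the ubiquitin ligase MDM2.

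The run of pyrimidines is seen in the genome at the start of the gene. Below are 30 bases before and 20 bases from the annotated first transcribed base of 4 members with large ketotifen-minus-PBS differences and of 4 with differences near or below 0, from RefSeq promoters on GRCh38.p14, with the run of C and T that covers the first base in capitals. RPS21 lies at chr20:62387073-62387122, RPS12 at chr6:132814539-132814588, RPL31 at chr2:101002259-101002308 and RPL39 at chrX:119791611-119791660. RPL28 lies at chr19:55385902-55385951, RPS4X at chrX:72277229-72277278, RPS26 at chr12:56041888-56041937 and RPL11 at chr1:23691749-23691798. RPL39 and RPS4X are on the minus strand and the others on the plus strand.
RPS21: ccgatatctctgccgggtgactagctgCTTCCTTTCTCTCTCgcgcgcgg
RPS12: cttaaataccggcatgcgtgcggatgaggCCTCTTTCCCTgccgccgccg
RPL31: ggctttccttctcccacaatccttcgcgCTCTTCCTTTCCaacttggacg
RPL39: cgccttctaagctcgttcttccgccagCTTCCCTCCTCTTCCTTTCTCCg
RPL28: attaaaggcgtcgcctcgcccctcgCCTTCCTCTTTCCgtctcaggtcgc
RPS4X: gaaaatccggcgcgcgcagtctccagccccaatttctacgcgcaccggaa
RPS26: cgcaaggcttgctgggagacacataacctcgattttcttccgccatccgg
RPL11: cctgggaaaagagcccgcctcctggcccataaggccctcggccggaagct
The first 4 each carry a run, of 15, 11, 12 and 22 bases in the order printed. RPL28, one of the members lowest with ketotifen, carries one of 13 bases. RPS4X, RPS26 and RPL11 have none over their annotated first base, which is a purine. Runs that begin at a nearby base were not counted, so a tract at another start is not excluded. The printed genes were picked from the extremes of the change, so their runs cannot test a link between run and change. Of the 61 core genes with a promoter, 42 carried a run of at least 6 bases. Across these 61, length of the run and change had a Spearman's rho of only 0.15.

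In abundance the core genes stood far above the typical gene. The 76 core genes that averaged 1 FPKM or more over the libraries had a median level of 695 FPKM, against 10.9 FPKM over all 10586 genes that passed this filter. Levels ran from 7.65 FPKM for RPS10 to 4517 FPKM for RPS2, the highest of any gene tested. RPS2, a small-subunit protein at the channel where mRNA enters, had 4581 and 4653 FPKM in ketotifen libraries A and B, against 4505 and 4328 FPKM in PBS libraries A and B. Both ketotifen libraries were above both PBS libraries, and the change of 0.06 ± 0.06 did not pass (limma adjusted p = 0.592), or 0.04 without PBS library B. The members made up 19.0% and 18.7% of the summed FPKM in ketotifen libraries A and B, against 17.9% and 16.9% in PBS libraries A and B. The means were 18.8 ± 0.193% and 17.4 ± 0.742% (SD, n = 2 each), and the exact two-sided permutation test gave p = 0.333, the smallest that 2 against 2 libraries allow. Counted as recovered reads, which do not divide by gene length, the shares were 7.58% and 7.43% with ketotifen and 7.01% and 6.47% with PBS. In every one of these readings PBS library B was the lowest.

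Most core genes were slightly higher with ketotifen, and no single one passed the main test. The median change of the 76 tested core genes was 0.19, as ketotifen minus PBS on the log2(FPKM + 1) scale (interquartile range 0.07 to 0.30, full range -0.08 to 0.59), against -0.02 over all tested genes. Of these 76 genes, 68 lay above 0 and 8 below. The 31 small-subunit genes had a median of 0.24 and the 45 large-subunit genes one of 0.16. Without PBS library B these medians were 0.15 and 0.10, and after quantile normalization 0.15 and 0.06. The 5 tested paralogs had a median of 0.15. In RNA from bulk cells, a different mix of cells and a different amount of RNA per cell cannot be told apart. Limma called 0 of the 81 tested members higher and 0 lower at an adjusted p under 0.05, where it called 0.00945% of all tested genes higher and 0.113% lower. At an unadjusted p under 0.05, 53 members, 50 of them core, were higher and 0 lower, where 10% of all tested genes were higher and 10.3% lower.

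The 4 libraries were ordered in the same way for most members. Both ketotifen libraries were above both PBS libraries in 68 of the 81, which were 38 large-subunit and 27 small-subunit core genes and 3 paralogs, where 23.2% of all tested genes showed this. The reverse held for 3 members, RPL14, RPL28 and RPS4X, where 31.2% of all tested genes showed it. The full order of ketotifen A, ketotifen B, PBS A and PBS B from high to low was found in 55 members, 54 of them core, against 9.3% of all tested genes. Among the 509 other genes averaging 100 FPKM or more, the median change was 0.05, and 48.7% had both ketotifen libraries above both PBS libraries. The part of a high level in the members' count was not tested.

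**Figure D1:**
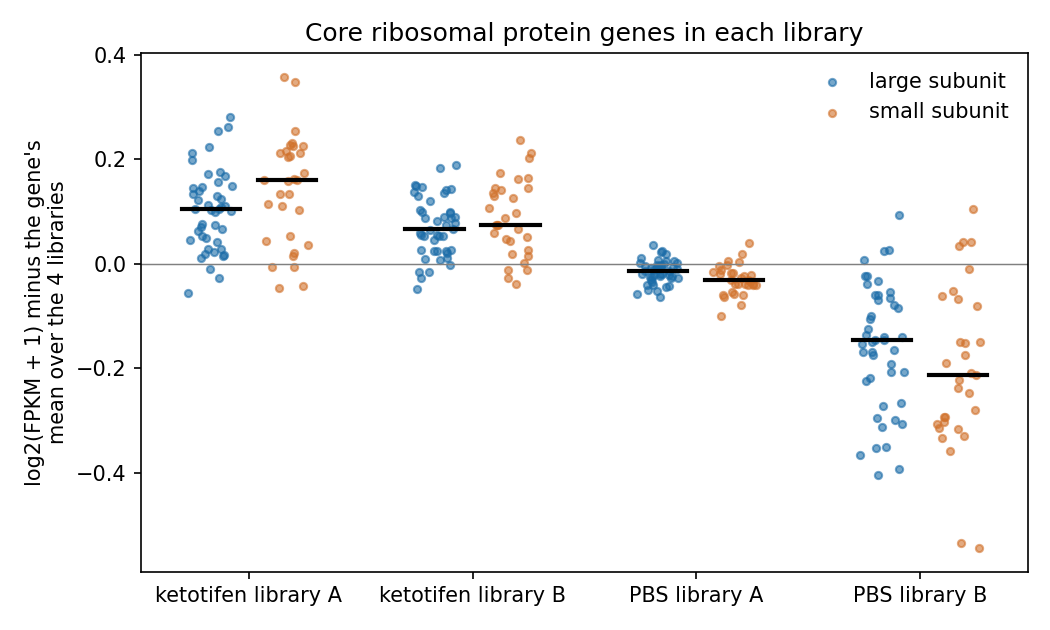
Each point is 1 of the 76 tested core genes in 1 library, drawn as its log2(FPKM + 1) minus that gene's mean over the 4 libraries, with large-subunit genes in blue, small-subunit genes in orange and the median as a bar. The ketotifen libraries lie mostly above 0, PBS library A close to 0, and PBS library B lowest and most spread.

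The size of the difference moved with the PBS library it was set against. With the FPKM as deposited, the median core change was 0.11 without PBS library B and 0.26 without PBS library A. It was 0.08 after quantile normalization and 0.12 after a correction for gene length. Quantile normalization gives every library the same set of values, so it can remove part of a shift shared by the most abundant genes. RPS2, the highest gene, had a change of 0 after it. Quantile normalization left 44 members with both ketotifen libraries above both PBS libraries and 17 with both below, where 24.7% and 28.4% of all tested genes lay so.

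By limma, members passed the threshold when either PBS library was left out, but not when either ketotifen library was. Each fit without a PBS library takes its spread from the ketotifen libraries and assumes that the lone PBS library varies as they do. Without PBS library B, limma called 30 members higher, 14 large-subunit and 16 small-subunit core genes, and 0 lower, against 2.4% and 1.58% of all tested genes. Without PBS library A it called 57 members higher and 1, RPS26, lower, against 10% and 8.27% of all tested genes. All 30 were among the 57. On the recovered reads voom called 44 members higher and 0 lower, against 3.35% and 3.56% of all tested genes. The 44 were 23 large-subunit and 20 small-subunit core genes and the paralog RPS27L, and they included all 30 that were called without PBS library B. Without ketotifen library A voom called 14 members higher, and without ketotifen library B 23, against 0.623% and 1.16% of all tested genes. Without PBS library A it called 58 higher and without PBS library B 37, against 8.64% and 1.75% of all tested genes. Without PBS library A it also called 2 lower, RPL28 and RPS26, against 11.6% of all tested genes.

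Between the PBS libraries, which had the same treatment, core genes also differed together. PBS library B was lower than PBS library A by a median of 0.14 (median of B minus A -0.14), where the median over all tested genes was 0.01. Small-subunit genes had a median of -0.20 and large-subunit genes one of -0.13. Library B was more than 0.1 below A in 53 of the 81 tested members, 51 of them core, and more than 0.1 above in 2, RPL28 and RPS26, where 19.8% and 21.7% of all tested genes differed by that much. The ketotifen libraries were closer, with a median B minus A of -0.04 over core genes. Ketotifen library B was more than 0.1 below A in 12 members and above by that much in 0, where 15.3% and 13.6% of all tested genes differed so far. These are single libraries set against each other, so no test was made.

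The members that were low in PBS library B tended to be those that were lower in ketotifen library B. Across the 76 core genes the 2 within-group differences, which share no library, had r = 0.58 and rho = 0.52. Genes are not independent replicates, and the letters of the libraries carry no stated meaning. Among all other tested genes r was 0.10 (n = 10505), and among the 509 other genes of at least 100 FPKM it was 0.45. The 12 members more than 0.1 lower in ketotifen library B were RPL9, RPL38, RPL39, RPS10, RPS12, RPS15A, RPS20, RPS21 and RPS29 among core genes and the paralogs RPL26L1, RPL36AL and RPS27L. RPS21 and RPS12 were the farthest down in PBS library B, at -0.50 and -0.50, and stood at -0.11 and -0.15 in the ketotifen pair. They also had the largest changes between the groups, a quantity that shares PBS library B with the first difference.

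**Figure D2:**
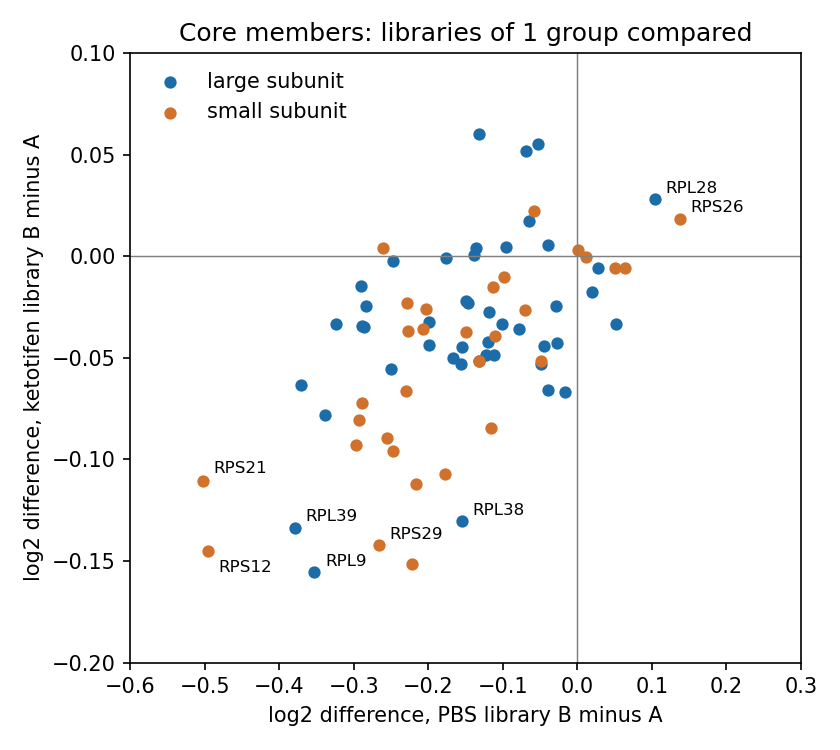
For each of the 76 tested core genes, the x axis gives PBS library B minus PBS library A and the y axis ketotifen library B minus ketotifen library A, both on the log2(FPKM + 1) scale. Most points lie in the lower left, with RPS21 and RPS12 farthest left, and RPL28 and RPS26 stand at the right with library B higher in both groups.

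**Figure D3:**
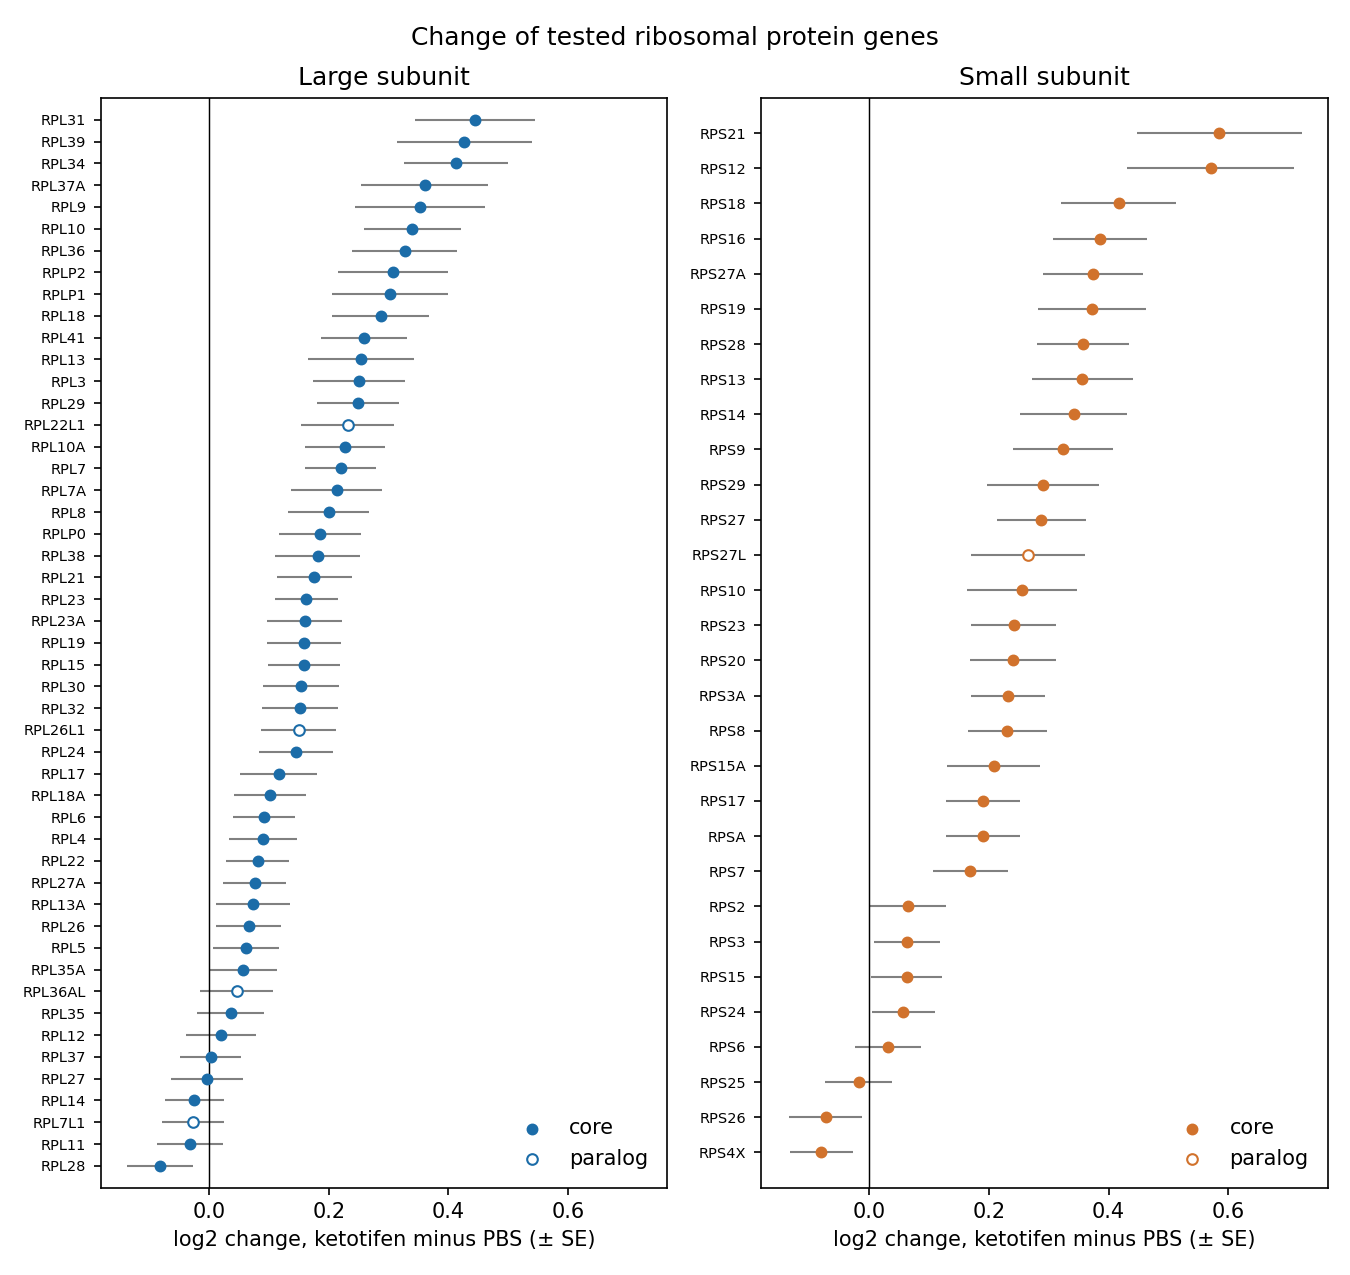
Points give the log2 change of 79 of the 81 tested members, ketotifen minus PBS, with limma's standard error (n = 2 libraries per group), filled for core genes and open for paralogs. RPS21 and RPS12 head the small subunit and RPL31 and RPL39 the large one, while RPL28 and RPS4X are lowest.

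Several small-subunit genes were higher in both ketotifen libraries. RPS16, whose tail reaches the decoding site, had 1314 and 1281 FPKM in ketotifen libraries A and B, against 1074 and 918 FPKM in PBS libraries A and B. The PBS libraries were further from each other than the ketotifen ones, and all of PBS lay below all of ketotifen. The change was 0.39 ± 0.08 (SE, limma adjusted p = 0.10, voom adjusted p = 0.000906). Without PBS library B it was 0.27. RPS28, a protein near the exit of the mRNA channel, had 292 and 278 FPKM with ketotifen and 241 and 205 FPKM with PBS, with a change of 0.36 ± 0.08 (limma adjusted p = 0.102). RPS27A, which is made as a fusion of ubiquitin and a small-subunit protein, had 324 and 304 FPKM with ketotifen and 265 and 221 FPKM with PBS. In both genes the groups did not overlap, and the RPS27A change was 0.37 ± 0.08 (limma adjusted p = 0.102), or 0.25 without PBS library B.

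The largest changes were those of RPS21 and of RPS12, a protein of the beak of the small subunit. Their start sites are printed above. RPS21 had 191 and 177 FPKM in ketotifen libraries A and B, against 146 and 103 FPKM in PBS libraries A and B. Its groups did not overlap, but the step between the PBS libraries was nearly as long as that between the group means. The change was 0.59 ± 0.14 (95% interval 0.27 to 0.90; limma adjusted p = 0.109). RPS12, which was picked after its values were seen, had 1010.5 and 914 FPKM in ketotifen libraries A and B, against 768 and 544 FPKM in PBS libraries A and B. It repeated the pattern of RPS21, with PBS library B far below the rest, and a change of 0.57 ± 0.14. Without PBS library B the changes were 0.33 for RPS21 and 0.32 for RPS12, and without PBS library A 0.84 and 0.82. Under either choice both genes stayed above 0.

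RPS19, the gene most often mutated in Diamond-Blackfan anaemia, had 349 and 330.0 FPKM with ketotifen and 290.1 and 237 FPKM with PBS, again without overlap and with PBS library B lowest. The change was 0.37 ± 0.09 (limma adjusted p = 0.112), or 0.23 without PBS library B. RPSA, also known as the laminin receptor precursor, had 1342 and 1306 FPKM with ketotifen and 1206 and 1117 FPKM with PBS. It was higher with ketotifen in both libraries by a smaller step, 0.19 ± 0.06 (limma adjusted p = 0.168).

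A few small-subunit genes differed little between the groups. RPS6, the substrate of the kinases downstream of mTOR, had 1274 and 1274 FPKM in ketotifen libraries A and B, against 1242 and 1251 FPKM in PBS libraries A and B. The 4 values were almost equal, and the change of 0.03 had a 95% interval of -0.09 to 0.16. RPS4X, an X-linked small-subunit gene, had 767 and 768 FPKM in ketotifen libraries A and B, against 811 and 812 FPKM in PBS libraries A and B. It was one of 3 members with both ketotifen libraries below both PBS libraries, and within each group its libraries nearly coincided. The change was -0.08 ± 0.05 (limma adjusted p = 0.417). RPS26, which contacts the mRNA before the start codon, had 448 and 454 FPKM in ketotifen libraries A and B, against 452 and 498 FPKM in PBS libraries A and B. PBS library B was the highest and the other 3 libraries were alike, the reverse of most members. Its change was -0.07 ± 0.06 (limma adjusted p = 0.525), and without PBS library A it was -0.14 (limma adjusted p = 0.0207), but -0.004 without PBS library B. RPS25, a protein needed for initiation at several viral internal entry sites, had 1328 and 1322 FPKM with ketotifen and 1318 and 1366 FPKM with PBS. Its groups overlapped, with a change of -0.02 (95% interval -0.15 to 0.11).

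**Figure D4:**
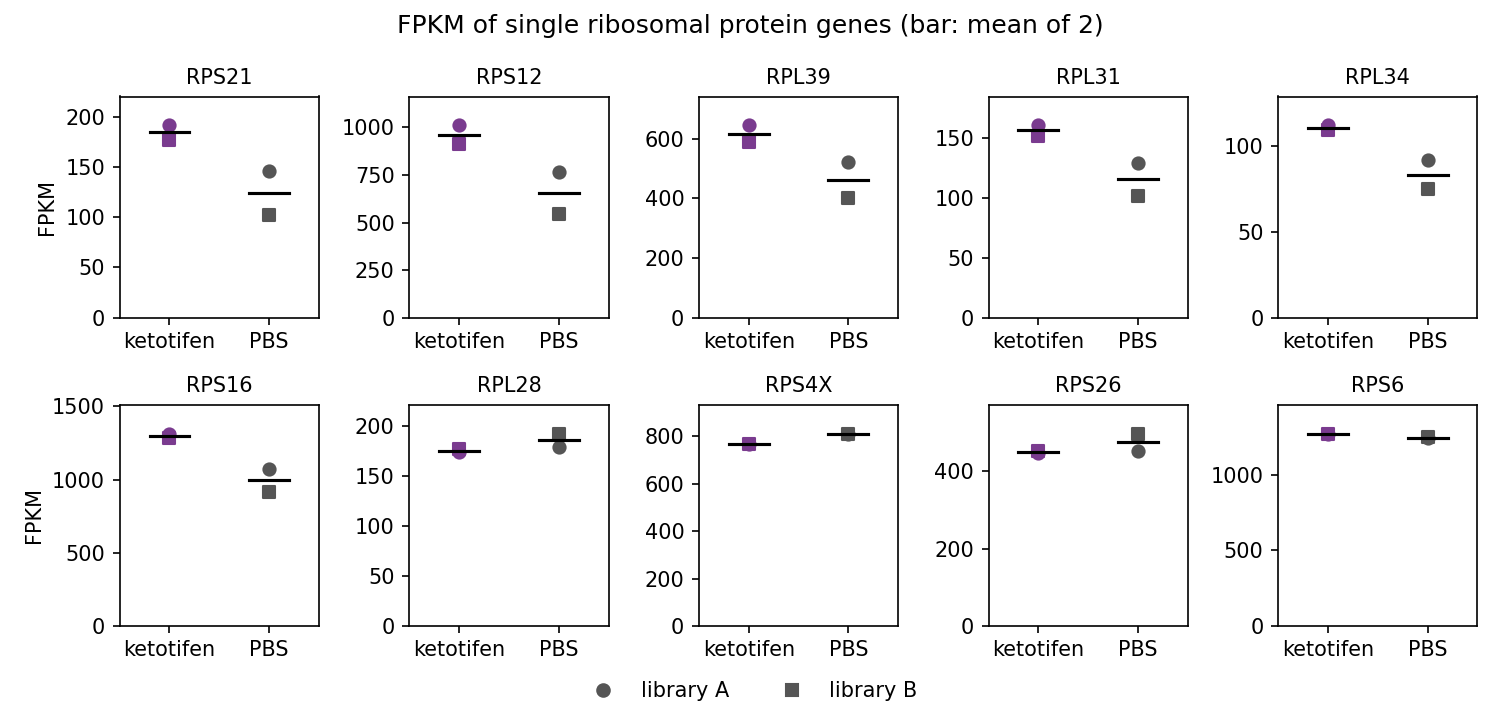
FPKM of 10 members in ketotifen libraries (left, purple) and PBS libraries (right, grey), with circles for library A, squares for library B and a bar at the mean of the 2. RPS21, RPS12, RPL39, RPL31, RPL34 and RPS16 show PBS library B lowest, and RPL28, RPS4X, RPS26 and RPS6 show group means within 0.1 of each other on the log2 scale.

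In the large subunit, the genes with the smallest p were RPL34, RPL31, RPL10 and RPL39. RPL31 and RPL39 encode proteins at the tunnel through which the new peptide leaves. RPL34 had 112 and 109 FPKM in ketotifen libraries A and B, against 91.6 and 74.9 FPKM in PBS libraries A and B. RPL31 had 160.5 and 152 FPKM in ketotifen libraries A and B, against 129 and 102 FPKM in PBS libraries A and B. In both, the ketotifen libraries were close together and the PBS libraries apart, without overlap of the groups. The changes were 0.41 ± 0.09 for RPL34 and 0.44 ± 0.10 for RPL31 (limma adjusted p = 0.10 and 0.102). RPL39 had 645 and 588 FPKM in ketotifen libraries A and B, against 522 and 401 FPKM in PBS libraries A and B. Library B was the lower in both groups, and the change was 0.43 ± 0.11 (limma adjusted p = 0.122). RPL10, a late-joining protein next to the peptidyl transferase centre, had 383 and 369 FPKM in ketotifen libraries A and B, against 324 and 272 FPKM in PBS libraries A and B. The groups were apart, with a change of 0.34 ± 0.08 (limma adjusted p = 0.111). Voom gave all 4 an adjusted p under 0.05, the largest being 0.00474 for RPL39. The changes without PBS library B were 0.27 for RPL34, 0.27 for RPL31, 0.21 for RPL10 and 0.24 for RPL39.

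The genes of the stalk, which brings elongation factors to the ribosome, were ordered like most members. RPLP0, the base of the stalk, had 2579 and 2538 FPKM with ketotifen and 2366 and 2138 FPKM with PBS. RPLP1 had 1048 and 1025 FPKM with ketotifen and 939.9 and 751 FPKM with PBS. RPLP2 had 1696 and 1656 FPKM with ketotifen and 1496 and 1224 FPKM with PBS. In all 3 genes both ketotifen libraries were above both PBS libraries and PBS library B was the lowest. The changes were 0.19 ± 0.07 for RPLP0, 0.30 ± 0.10 for RPLP1 and 0.31 ± 0.09 for RPLP2, with limma adjusted p-values of 0.199, 0.163 and 0.148. Without PBS library B they were 0.11, 0.14 and 0.16, and without PBS library A RPLP1 was at 0.46.

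RPL5 and RPL11 form a particle with the small RNA of the large subunit and, outside the ribosome, bind MDM2. RPL5 had 1034 and 1002 FPKM in ketotifen libraries A and B, against 991 and 960.1 FPKM in PBS libraries A and B. RPL11 had 756 and 722 FPKM in ketotifen libraries A and B, against 759 and 751 FPKM in PBS libraries A and B. The RPL5 groups did not overlap but lay close, and the RPL11 groups overlapped. The changes were 0.06 (95% interval -0.07 to 0.19) and -0.03 (-0.16 to 0.10), so these intervals leave out changes as large as that of RPS16. The sign of RPL5 was below 0 in 2 of the 15 settings compared, and that of RPL11 above 0 in 1. Another 2 large-subunit genes had the largest p-values, RPL27 with 1555 and 1612 FPKM with ketotifen and 1625 and 1549.8 FPKM with PBS and RPL37 with 128 and 125 FPKM with ketotifen and 124 and 129 FPKM with PBS. Their groups overlapped, and the changes were -0.004 and 0.003. RPL28, which was named after its values were seen, had 174 and 177 FPKM in ketotifen libraries A and B, against 179 and 193 FPKM in PBS libraries A and B. Its groups did not overlap, with ketotifen lower, and the change was -0.08 ± 0.06 (limma adjusted p = 0.434). It was -0.03 without PBS library B and -0.13 without PBS library A.

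Of the 76 core genes, 8 had overlapping groups, among them RPL11, RPL12, RPL27, RPL35A, RPL37, RPS25 and RPS26. Across the main fit and the 14 alternative settings, 55 of the 81 tested members were above 0 in all 15, 4 were below in all 15, namely RPL28, RPS4X, RPS26 and the paralog RPL7L1, and 22 took both signs or reached 0. The members that took both signs include RPS6, RPS25, RPL5, RPL11, RPL27 and RPL37.

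The paralogs were less abundant than their core partners, apart from RPL36AL. RPL22L1, which can take the place of RPL22 in the ribosome, had 38.5 and 39.0 FPKM with ketotifen and 35.7 and 30.2 FPKM with PBS. RPL22 had 219.7 and 209.8 FPKM with ketotifen and 206 and 200.1 FPKM with PBS. The RPL22L1 change of 0.23 ± 0.08 and the RPL22 change of 0.08 ± 0.05 were both without overlap of the groups, and neither passed (limma adjusted p = 0.174 and 0.414). These were 0.11 and 0.06 without PBS library B, and without PBS library A 0.35 and 0.10. RPS27L had 11.3 and 10.3 FPKM with ketotifen and 9.71 and 7.96 FPKM with PBS. Its partner RPS27 had 943 and 920.1 FPKM with ketotifen and 819.9 and 710.4 FPKM with PBS. The changes were 0.27 ± 0.09 and 0.29 ± 0.07, although RPS27 was far more abundant per length. They were 0.14 and 0.18 without PBS library B. RPL26L1 had 23.6 and 21.8 FPKM with ketotifen and 19.9 and 20.8 FPKM with PBS, with a change of 0.15, where RPL26 had 1127 and 1114 FPKM with ketotifen and 1063 and 1077 FPKM with PBS and a change of 0.07. RPL7L1, which acts in ribosome assembly, had 59.9 and 62.1 FPKM with ketotifen and 61.6 and 62.8 FPKM with PBS and overlapping groups. RPL7 had 515 and 505 FPKM with ketotifen and 456 and 420.1 FPKM with PBS, without overlap and with a change of 0.22 ± 0.06 (limma adjusted p = 0.126). The difference within each pair was not tested.

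The other 3 members were under the filter. RPL39L and RPL3L, paralogs known from testis and from muscle, had at most 0.209 and 0.0555 FPKM in any library. RPL36A had 0.609 and 0.311 FPKM with ketotifen and 0.200 and 0.491 FPKM with PBS, whereas its near-identical copy RPL36AL had 258 and 239.8 FPKM with ketotifen and 233 and 249 FPKM with PBS. The RPL36AL groups overlapped, with a change of 0.05. In GENCODE release 29 the exons of RPL36A, RPS10 and RPL17 overlap other genes of the same strand by 8.40%, 39.4% and 32.7% of their length. Among those genes are the readthrough genes RPL36A-HNRNPH2, RPS10-NUDT3 and RPL17-C18orf32. RPS10 and RPL17 were also low for core genes, RPS10 with 8.89 and 7.91 FPKM with ketotifen and 7.49 and 6.29 FPKM with PBS and RPL17 with 23.1 and 24.1 FPKM with ketotifen and 22.8 and 20.7 FPKM with PBS. Other members had a low level with little overlap or a high level with more. RPS29 averaged 18.7 FPKM with an overlap of 4.09%, RPL36 529 FPKM with 17.6% and RPS2 4517 FPKM with 25.6%. The part of these overlaps in the levels was not tested. From 0 to 91 pseudogenes are annotated for each member, so reads of near-identical copies may be split, and values of single members carry that limit.

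Within the core genes, length, level and number of pseudogenes were weakly related to the change. Such a correlation cannot speak to a trait that these genes have in common. The correction for gene length, made over all tested genes, took the median core change from 0.19 to 0.12, and the part of length was not tested. Across the 76 core genes, Spearman's rho of the change was -0.12 with the gene length implied by the FPKM values, -0.17 with the mean level and -0.05 with the number of annotated pseudogenes. Of the 76, 61 had a promoter in the RefSeq table, and 42 of these (68.9%) carried a run of at least 6 pyrimidines over the annotated first base, against 7.51% of 27305 promoters. Genes with the run had a median change of 0.24 (range -0.08 to 0.59, n = 42), those without it 0.16 (n = 19) and those without a matched promoter 0.16 (n = 15). Length of the run and change had rho = 0.15 (n = 61). In the window of 250 bases before to 50 after the start, searched on both strands, CCGGAA was in 54.1% of the 61 core promoters and 17.6% of all, CACGTG in 4.92% and 7.43%, and TATAAA in 8.20% and 12%. Within the 50 bases before the start alone, TATAAA was in 4 of the 61 (6.56%) and in 3.76% of all. These matches describe letters in the window and no bound factor.

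Some core ribosomal proteins are made from genes outside the symbol rule. FAU, which encodes a ubiquitin-like protein fused to a small-subunit protein, had 629 and 585 FPKM in ketotifen libraries A and B, against 484 and 404 FPKM in PBS libraries A and B. Its groups were apart, and the change was 0.45 ± 0.09 (limma adjusted p = 0.0968, voom adjusted p = 0.000877). RACK1, the scaffold on the head of the small subunit, had 1719 and 1681 FPKM with ketotifen and 1604 and 1463 FPKM with PBS. It was higher in both ketotifen libraries, by 0.15 ± 0.07 (limma adjusted p = 0.246), or 0.08 without PBS library B.

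Other mRNAs that begin with the pyrimidine tract code for proteins outside the ribosome, many of them translation factors. Limma called 0 of 21 such genes, and 4 were higher and 2 lower at an unadjusted p under 0.05, where 10% and 10.3% of all tested genes were. Their median change was 0.02, against -0.02 over all tested genes. Both ketotifen libraries were above both PBS libraries in 9 and below in 7, where 23.2% and 31.2% of all tested genes lay so. Voom called 4 higher, EEF1D, NACA, COX7C and PFDN5, and 1 lower, PABPC1, against 3.35% and 3.56% of all tested genes. PFDN5, a prefoldin subunit, had 188 and 170.1 FPKM with ketotifen and 152 and 147 FPKM with PBS, with a change of 0.26 ± 0.06 (limma adjusted p = 0.112). PABPC1, the poly(A)-binding protein, went the other way, with 549 and 579 FPKM with ketotifen and 639.9 and 723 FPKM with PBS and a change of -0.27 ± 0.07 (limma adjusted p = 0.122). The groups did not overlap in either gene.

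None of the tested regulators of ribosomal protein mRNA passed. Of 14 genes, which include MTOR, LARP1 and RPS6KB1, 13 were tested and 0 were called by limma or by voom, with a median change of -0.02. At an unadjusted p under 0.05, 1 was higher and 1 lower, where 10% and 10.3% of all tested genes were. Both ketotifen libraries were above both PBS libraries in 1 and below in 3, where 23.2% and 31.2% of all tested genes lay so. MYC was below the filter, at 0.0663 and 0.0328 FPKM with ketotifen and 0.263 and 0.191 FPKM with PBS. CNBP, which binds pyrimidine-tract mRNAs, had 103 and 104 FPKM with ketotifen and 93.4 and 92.4 FPKM with PBS, and TBP, the TATA-binding protein, had 12.7 and 13.2 FPKM with ketotifen and 16.2 and 14.3 FPKM with PBS. Their changes were 0.15 ± 0.05 and -0.22 ± 0.07, and neither passed (limma adjusted p = 0.163 and 0.169). TBP was at -0.30 without PBS library B (limma adjusted p = 0.0216) and without PBS library A at -0.14, and CNBP without PBS library A was at 0.16 (limma adjusted p = 0.0358). Of 13 tested chaperones, import factors and export factors of ribosomal proteins, 0 were called by limma, with a median change of 0.03. Voom called 2 higher, where it called 3.35% of all tested genes higher. The same number was higher at an unadjusted p under 0.05, where 10% of all tested genes were. NACA, BTF3 and NAP1L1 stand in this list and in that of the pyrimidine tract, and 3 further names were not matched. The 2 called by voom were AAMP, with 68.9 and 64.4 FPKM with ketotifen and 56.9 and 50.7 FPKM with PBS, and NACA, with 90.2 and 85.4 FPKM with ketotifen and 79.8 and 69.6 FPKM with PBS. Both had non-overlapping groups, with changes of 0.31 ± 0.07 and 0.23 ± 0.07 (limma adjusted p = 0.102 and 0.153). NACA was at 0.14 without PBS library B.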

How the data were processed

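RNA was measured in 4 libraries, 2 per group. TRIzol extraction, a stranded mRNA kit and paired-end sequencing were used, per the labels' protocols. Listed in the submitters' processing notes are the tools fastp, HISAT2 and HTSeq and the build GRCh38. The sources used here do not give the annotation, gene lengths, scaling total or use of strand. Overlapping and antisense genes may therefore share reads. The authors deposited 1 table of FPKM values. Whether the cultures were separate is not stated in the labels, and the p-values rest on a spread between libraries that may be technical only.

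Log2(FPKM + 1) values were tested with limma 3.58.1 in R 4.3.3 (trended variance, two-sided) for genes averaging 1 FPKM or more, with Benjamini-Hochberg adjustment over all 10586 tested genes and a threshold of 0.05. Changes of low genes are understated on this scale. Within a gene the FPKM values are multiples of the worth of a single read. This gave whole reads, within a rounding error of 0.05 reads, for 100% of the tested genes. Read totals are minima, since a factor common to all libraries of a gene cannot be seen. Relative to PBS library A, the depth was 1.12 and 1.03 times in ketotifen libraries A and B and 1.06 times in PBS library B. Voom was run on these reads. The recovery and the fits were tested on simulated data (Python 3.11.15).

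The members and lists were chosen with earlier results of these data known. Named genes are the 4 core genes of each subunit with the smallest and the 2 with the largest p, paralogs and partners, members with a defined role, extremes of level and of PBS difference, and the 2 genes of each other list with the smallest p. Other names, among them RPS12, RPL28, the voom calls and genes with overlapping groups, were picked after their values were seen. Some genes that the rule takes are not reported here. Positions of genes came from GENCODE release 29 and promoters from RefSeq. Alternatives were other pseudocounts, filters and scalings, a length correction, voom and leaving out each library.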

Additional observations from a re-analysis of the deposited data

How the results depend on the processing

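The count of members called higher by limma was 0 in the main fit and 44 with voom, and ran from 0 to 57 when 1 library was left out. The count called lower was 0 and ran from 0 to 1. By voom, the count called higher ran from 14 to 58 and that called lower from 0 to 2 when 1 library was left out, fits that were added after the data were seen; the 58, without PBS library A, stand against 8.64% of all tested genes. The median core change of 0.19 was 0.079 after quantile normalization, ran from 0.11 to 0.26 when 1 library was left out, and stayed above 0 in all 14 alternatives. It was 0.14 after rescaling to an equal sum of FPKM, where the median of all tested genes was -0.06. The 68 members with both ketotifen libraries above both PBS libraries became 44 after quantile normalization. The 3 with both below became 17 after quantile normalization, which gives every library the same set of values. After rescaling to an equal sum of FPKM, 55 lay above and 11 below. After rescaling to an equal sum over all other genes these were 62 and 8, and after the length correction 57 and 11. The median of all tested genes was -0.06, -0.04 and -0.001 in that order. When 1 library was left out, a looser condition, the count above ran from 68 to 72 and that below from 4 to 8. Of all tested genes, 23.2% lay above and 31.2% below in the main fit, and 24.7% and 28.4% after quantile normalization. For the other settings these shares were not counted. Pseudocounts of 0.1 and 5 FPKM and filters of none and of 5 FPKM changed no count of members. No paired analysis was possible because the letters of the columns match no replicate number of the labels. With 2 libraries per group, the spread between libraries limits what single genes can show.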
